A study of Mus musculus with 10 samples.

Results

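A set of 8 genes of the G1 phase of the cell cycle was followed in mouse CD8+ T cells: the D-type cyclins Ccnd2 and Ccnd3, the kinases Cdk4 and Cdk6, the inhibitors Cdkn1a (p21), Cdkn1b (p27) and Cdkn2d (p19-INK4d), and Sertad1 (p34-SEI1). They were chosen by gene symbol with earlier results of these data known, so counts of them against all genes are descriptive only. All 8 were found among the 12637 genes of the deposited table. D-type cyclins bind CDK4 or CDK6, and the complex phosphorylates the retinoblastoma protein, which frees E2F factors to switch on genes for DNA replication. INK4 proteins such as p19-INK4d bind the kinase alone, whereas p21 and p27 bind cyclin and kinase together, and SERTAD1 binds CDK4 and promotes its activity. Resting T cells are held out of the cycle in part by p27, and they enter G1 when the antigen receptor and CD28 are engaged.

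RNA was sequenced from CD8+ CD62Lhi CD44lo/- cells, the surface phenotype of naive T cells, sorted from spleens of female C57Bl/6 mice aged 6 weeks. The mice were Ikaros-Zn4-/-, in which the Ikaros DNA-binding domain lacks its zinc finger 4, or wild type (WT). Cells were taken directly (0 min) or after 30 or 120 min on plate-bound antibodies against CD3, a part of the antigen receptor complex, and CD28. Ikaros-Zn4-/- and WT cells have 2 libraries each at 0 min, 2 each at 30 min and 1 each at 120 min, 10 libraries in 6 groups. Whether replicates come from different mice is not given in the sources used here, so a p-value reflects the variation among these libraries alone, which may be technical.

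Values are in RPKM, a read count divided by exon length and library size, as the authors deposited them. The steps of low values put the depth at 4.50e+06 to 1.33e+07 reads per library. Differences were tested with limma on log2(RPKM + 1) over the 12203 genes that averaged 0.5 RPKM or more, in 1 fit of all 10 libraries. A gene is called where its Benjamini-Hochberg adjusted p is below 0.05, and log2 changes on this scale understate the change of genes with few reads. The median gene moved by -0.13 at 30 min and by -0.32 at 120 min against 0 min, and by -0.22 between 30 and 120 min, so each stimulation change is also given relative to that shift. The adjusted p tests the deposited change. All 8 CD8 T cell markers, Cd8a and Cd3e among them, had values, and they summed to 1523 to 4324 RPKM in Ikaros-Zn4-/- and 1340 to 3810 RPKM in WT libraries. All 8 markers fell at 120 min, with a median change of -1.61 against 0 min, or -1.29 relative to the median gene. Ikzf1, which encodes Ikaros, had 206 to 263 RPKM in Ikaros-Zn4-/- and 134 to 171 RPKM in WT libraries. A value per gene includes exons outside the deletion and so checks nothing about it. Gene positions are from GENCODE M21 on GRCm38.

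Upstream sequence of 3 of the genes is shown first, because Sertad1 and Cdkn1b rose at 30 min and Cdk4 was called between genotypes. The genotype calls of Cdk4 ended in most fits without 1 library, and its exons overlap those of Tspan31, both described below. Each stretch is the 250 bases before the start site, on the plus strand for all 3 genes, from RefSeq on GRCm38.p6: chr10:127063285-127063534 for Cdk4, chr7:27486703-27486952 for Sertad1 and chr6:134920151-134920400 for Cdkn1b. For Sertad1 the RefSeq start differs from that of GENCODE, whose gene begins at 27486910, inside the stretch shown. Capitals mark CACGTG (the E-box bound by MYC and MAX) and TGGGAA (a core that Ikaros binds, here as its reverse complement) in Cdk4, and GGGCGG (the GC box, on either strand) in the others.
Cdk4: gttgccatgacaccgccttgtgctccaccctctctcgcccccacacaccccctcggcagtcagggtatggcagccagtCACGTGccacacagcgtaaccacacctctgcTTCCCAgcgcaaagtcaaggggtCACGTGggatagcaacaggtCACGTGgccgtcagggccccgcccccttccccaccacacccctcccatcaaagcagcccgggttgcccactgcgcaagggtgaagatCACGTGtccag
Sertad1: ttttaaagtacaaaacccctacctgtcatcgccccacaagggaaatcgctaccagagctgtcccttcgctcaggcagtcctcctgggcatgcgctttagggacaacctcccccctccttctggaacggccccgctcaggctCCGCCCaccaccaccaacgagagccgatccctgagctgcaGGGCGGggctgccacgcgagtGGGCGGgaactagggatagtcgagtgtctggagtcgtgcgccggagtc
Cdkn1b: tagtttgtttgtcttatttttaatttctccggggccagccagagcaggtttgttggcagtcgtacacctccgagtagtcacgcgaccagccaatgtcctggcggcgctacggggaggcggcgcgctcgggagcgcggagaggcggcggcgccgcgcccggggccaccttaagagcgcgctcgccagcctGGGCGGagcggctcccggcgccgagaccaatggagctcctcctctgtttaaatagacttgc
The Cdk4 stretch held 4 CACGTG matches, with first bases at positions -172, -118, -98 and -11 from the start site, and 1 TGGGAA match at -141. Of 32851 mouse promoter windows of the same 250 bases, searched on both strands, 6.02% held CACGTG at least once and 7 (0.0213%) held it 4 or more times, while TGGGAA was in 21.6%. The E-box sequence is its own reverse complement and was counted once per position. GGGCGG occurred 3 times for Sertad1, at -109, -69 and -48, and once for Cdkn1b, at -61. The share of windows with 3 or more matches is not given. Of all windows, 32.7% held GGGCGG at least once and 4.09% held it 4 or more times. The Cdk4 stretch also held it once, at -80, not in capitals, and none of these matches overlapped another. It occurred 3 times for Cdkn2d as well, which fell at 120 min, 2 times in 1 of the Cdkn1a windows, 2 times in 1 Ccnd3 window and once in the other. Of the 8 genes 7 had an entry, Ccnd2 not among them. CACGTG also occurred once for Cdk6, and TGGGAA once each for Cdkn2d and Cdkn1a. TGACGTCA (a cAMP response element, in 1.55% of windows), TGANTCA (an AP-1 site, 6.75%) and TTTNGCGC (an E2F site, 1.13%) occurred in none of the 7 genes with an entry. Such matches describe letters and not bound sites.

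**Figure D1:**
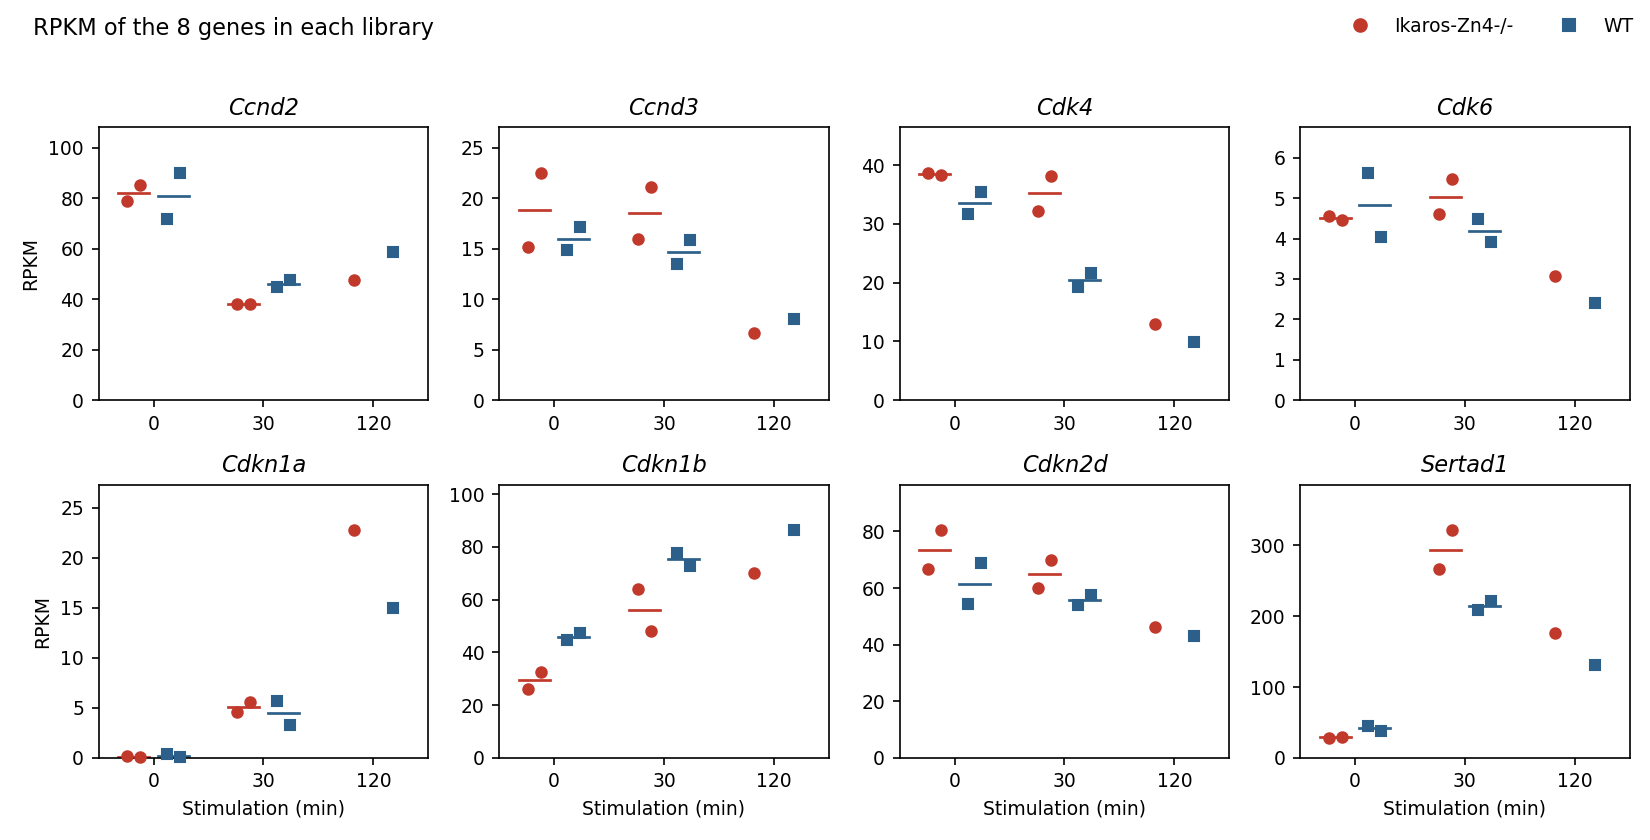
RPKM of each gene (vertical axis, from 0, its own scale per panel) by minutes of stimulation (horizontal axis), with Ikaros-Zn4-/- libraries as circles and WT libraries as squares. Each point is 1 library and each short line the mean of 2. Cdkn1a, Cdkn1b and Sertad1 were higher in all stimulated than in all unstimulated libraries, and Ccnd2 was lower. Cdkn1a had its place in the table only through stimulated libraries. The share of all genes that separate in this way is not given, so the separation describes these genes only.

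The clearest change at 30 min was in Sertad1, Cdkn1a and Cdkn1b, which rose, and in Ccnd2, which fell by a little under 1 log2 unit. Cdk4 also fell, a call that ended with median-ratio scaling. Ccnd3, Cdk6 and Cdkn2d did not pass the test at that time. Of the 8 genes, 5 were called at 30 against 0 min over both genotypes, 3 higher and 2 lower, where 19% of all genes were called, 6.51% higher and 12.5% lower. Of the 3 higher, Cdkn1a had its place in the table only through stimulated libraries, as described below. It therefore adds nothing to this count or to any later count against 0 min, over both genotypes or within each. At 120 min all 8 were called, the same 3 higher and 5 lower, where 59.7% of all genes were called, 19.3% higher and 40.4% lower; the calls of Ccnd2, Cdk6 and Cdkn2d ended with median-ratio scaling. With that scaling the split of all genes moved, to 1124 higher and 838 lower at 30 min and 3660 higher and 3655 lower at 120 min, in place of 794 higher and 1523 lower at 30 min and 2356 higher and 4935 lower at 120 min. The 120 min comparisons rest on 1 library per genotype, each assumed to vary like the others, and both times share their 0 min libraries. In bulk RNA, fewer cells of a type and less RNA per cell cannot be told apart.

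Per length, the genes at 0 min stood in this order of their means: Ccnd2 (71.7 to 90.1 RPKM), Cdkn2d (54.2 to 80.4), Cdkn1b (26.2 to 47.3), Cdk4 (31.7 to 38.8), Sertad1 (28.0 to 45.3), Ccnd3 (14.8 to 22.5), Cdk6 (4.04 to 5.63) and Cdkn1a (0.0506 to 0.377). The ranges of Ccnd2 and Cdkn2d overlapped, as did those of Cdkn1b, Cdk4 and Sertad1, and the others stood apart.

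Among the cyclins, Ccnd2 (ENSMUSG00000000184, chr6:127125162-127152193, minus strand) was the more abundant in every library. At 0 min Ccnd2 had 78.8 and 85.3 RPKM in Ikaros-Zn4-/- and 71.7 and 90.1 RPKM in WT cells. At 30 min Ccnd2 had 38.2 and 38.0 RPKM in Ikaros-Zn4-/- and 44.9 and 47.4 RPKM in WT cells. At 120 min Ccnd2 had 47.6 RPKM in Ikaros-Zn4-/- and 58.7 RPKM in WT cells. All 6 stimulated libraries lay below all 4 unstimulated ones, and within each genotype the 120 min library lay above both 30 min ones. Over both genotypes the change at 30 min was -0.94 (SE 0.10, adjusted p = 0.00274), or -0.81 relative to the median gene. At 120 min it was -0.61 (SE 0.12, adjusted p = 0.00414), or -0.29 relative to the median gene, and that call ended when libraries were scaled by their median ratio (-0.21, adjusted p = 0.109). Between 30 and 120 min Ccnd2 changed by 0.33 (SE 0.12, adjusted p = 0.059), which missed the threshold, and by 0.59 (adjusted p = 0.00265) with median-ratio scaling, which passed it. It also passed without WT replicate 1 or 2 at 0 min (adjusted p of 0.0451 and 0.0459).

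Ccnd3 (ENSMUSG00000034165, chr17:47505051-47599691, plus strand), the other D-type cyclin described here, fell at 120 min but did not pass the test at 30 min. At 0 min Ccnd3 had 15.1 and 22.5 RPKM in Ikaros-Zn4-/- and 14.8 and 17.1 RPKM in WT cells. At 30 min Ccnd3 had 16.0 and 21.1 RPKM in Ikaros-Zn4-/- and 13.4 and 15.8 RPKM in WT cells, values that overlap those at 0 min. At 120 min Ccnd3 had 6.64 RPKM in Ikaros-Zn4-/- and 8.07 RPKM in WT cells, below all 8 other libraries. The change at 30 min was -0.06 (SE 0.16, adjusted p = 0.797), with a sign that turned under median-ratio scaling, and at 120 min it was -1.13 (SE 0.19, adjusted p = 0.002), or -0.81 relative to the median gene. Since RPKM is per length, the 2 cyclins can be set against each other within a library, free of how libraries were scaled. Ccnd3 made up 15.9 to 20.9% of their sum at 0 min, 23.0 to 35.7% at 30 min, and 12.1 to 12.2% at 120 min. The sum itself was 86.6 to 108 RPKM at 0 min, 54.1 to 63.2 RPKM at 30 min and 54.3 to 66.8 RPKM at 120 min.

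Of the kinases, Cdk4 (ENSMUSG00000006728, chr10:127063534-127067920, plus strand) was above Cdk6 in every library. At 0 min Cdk4 had 38.8 and 38.3 RPKM in Ikaros-Zn4-/- and 31.7 and 35.5 RPKM in WT cells. At 30 min Cdk4 had 32.1 and 38.3 RPKM in Ikaros-Zn4-/- and 19.2 and 21.7 RPKM in WT cells, so both 30 min values lay well below both 0 min values in WT cells, while in Ikaros-Zn4-/- cells the higher 30 min value and the lower 0 min value were both 38.3 RPKM. At 120 min Cdk4 had 13.0 RPKM in Ikaros-Zn4-/- and 9.91 RPKM in WT cells, below every earlier library. The change at 120 min was -1.58 (SE 0.12, adjusted p = 6.91e-05), or -1.27 relative to the median gene, and it was called under each scaling tried. The change at 30 min over both genotypes was -0.41 (SE 0.10, adjusted p = 0.0297), or -0.28 relative to the median gene. That call ended with median-ratio scaling (adjusted p = 0.0575) and in 7 of the 10 fits that each left out 1 library (adjusted p of 0.0587 to 0.105), namely any of the 4 WT libraries at 0 and 30 min, either Ikaros-Zn4-/- library at 0 min, or Ikaros-Zn4-/- replicate 1 at 30 min.

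Cdk6 (ENSMUSG00000040274, chr5:3341485-3531008, plus strand), the other kinase that binds D-type cyclins, had 4.56 and 4.46 RPKM in Ikaros-Zn4-/- and 5.63 and 4.04 RPKM in WT cells at 0 min. At 30 min Cdk6 had 4.60 and 5.48 RPKM in Ikaros-Zn4-/- and 4.48 and 3.91 RPKM in WT cells, and at 120 min 3.08 RPKM in Ikaros-Zn4-/- and 2.40 RPKM in WT cells. The 120 min libraries were the lowest 2, and all others overlapped. The change was -0.01 at 30 min (SE 0.13, adjusted p = 0.951), with a sign that turned under median-ratio scaling, and -0.60 at 120 min (SE 0.16, adjusted p = 0.0134), or -0.28 relative to the median gene. The 120 min call ended with median-ratio scaling (-0.28, adjusted p = 0.182) and with quantile normalization (-0.11, adjusted p = 0.581). Cdk6 made up 10.2 to 15.1% of the sum of both kinases at 0 min, 12.5 to 18.9% at 30 min and 19.2 to 19.5% at 120 min. The GENCODE exon length of Cdk6, 13989 bases, did not give whole reads, whereas 3735 bases did. The size of these shares therefore depends on a length that is not known.

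Cdkn1a (ENSMUSG00000023067, chr17:29090976-29100727, plus strand), a CIP/KIP inhibitor that p53 is known to induce, was near the limit of detection before stimulation. At 0 min Cdkn1a had 0.135 and 0.0999 RPKM in Ikaros-Zn4-/- and 0.377 and 0.0506 RPKM in WT cells. At 30 min Cdkn1a had 4.57 and 5.54 RPKM in Ikaros-Zn4-/- and 5.66 and 3.25 RPKM in WT cells, and at 120 min 22.7 RPKM in Ikaros-Zn4-/- and 15.0 RPKM in WT cells. The 3 times did not overlap. Every gene of the deposited table reached at least 1.00 RPKM in some library, and Cdkn1a did so only when stimulated, so its place in the table already required a rise. Its GENCODE exon length did not give whole reads, so its reads were taken as the smallest whole numbers in the ratios of its values, and they are lower bounds. By these it had 4 and 1 at 0 min, 104 and 71 at 30 min and 465 at 120 min in Ikaros-Zn4-/- cells. In WT cells it had 9 and 1 at 0 min, 146 and 42 at 30 min and 349 at 120 min. Per read sequenced, the rate at 30 min was 39.0 times that at 0 min in Ikaros-Zn4-/- cells (exact 95% Poisson interval 16.4 to 122) and 21.2 times in WT cells (11.3 to 44.9). At 120 min the ratio to 0 min was 180 in Ikaros-Zn4-/- cells (76.7 to 558) and 65.2 in WT cells (35.1 to 137); these intervals cover counting error only. The log2 change was 2.29 at 30 min (SE 0.18, adjusted p = 0.00112) and 4.07 at 120 min (SE 0.22, adjusted p = 3.7e-05), or 2.42 and 4.39 relative to the median gene.

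Cdkn1b (ENSMUSG00000003031, chr6:134920401-134925513, plus strand), which encodes p27, an inhibitor already abundant in resting T cells, rose as well. At 0 min Cdkn1b had 26.2 and 32.7 RPKM in Ikaros-Zn4-/- and 44.6 and 47.3 RPKM in WT cells. At 30 min Cdkn1b had 64.2 and 48.0 RPKM in Ikaros-Zn4-/- and 77.8 and 72.9 RPKM in WT cells, and at 120 min 70.2 RPKM in Ikaros-Zn4-/- and 86.3 RPKM in WT cells. All 6 stimulated libraries lay above all 4 unstimulated ones, and at each time the Ikaros-Zn4-/- values lay below the WT values. The change was 0.80 at 30 min (SE 0.12, adjusted p = 0.00866) and 1.06 at 120 min (SE 0.15, adjusted p = 0.000904), or 0.93 and 1.38 relative to the median gene. Within a library, Cdkn1b stood at 0.333 to 0.621 RPKM per RPKM of Ccnd2 at 0 min, 1.26 to 1.73 at 30 min and 1.47 in both libraries at 120 min. Cdkn1a made up 0.107 to 0.839% of the sum of both CIP/KIP inhibitors at 0 min, 4.26 to 10.4% at 30 min and 14.8 to 24.5% at 120 min. The size of these shares depends on the unknown exon length behind the Cdkn1a values.

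Cdkn2d (ENSMUSG00000096472, chr9:21288410-21291407, minus strand), the INK4 inhibitor among the 8, was lower at 120 min. At 0 min Cdkn2d had 66.7 and 80.4 RPKM in Ikaros-Zn4-/- and 54.2 and 68.8 RPKM in WT cells. At 30 min Cdkn2d had 59.9 and 70.0 RPKM in Ikaros-Zn4-/- and 54.1 and 57.6 RPKM in WT cells, overlapping the 0 min values. At 120 min Cdkn2d had 46.3 RPKM in Ikaros-Zn4-/- and 43.1 RPKM in WT cells, the lowest values of all. The change was -0.15 at 30 min (SE 0.12, adjusted p = 0.395) and -0.57 at 120 min (SE 0.14, adjusted p = 0.012), or -0.25 relative to the median gene, a call that ended with median-ratio scaling (-0.17, adjusted p = 0.224).

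Sertad1 (ENSMUSG00000008384, chr7:27486910-27490316, plus strand) had the largest fold change at 30 min of the 7 genes other than Cdkn1a, whose fold was larger. At 0 min Sertad1 had 28.0 and 29.6 RPKM in Ikaros-Zn4-/- and 45.3 and 38.2 RPKM in WT cells. At 30 min Sertad1 had 267 and 321 RPKM in Ikaros-Zn4-/- and 209 and 221 RPKM in WT cells, and at 120 min 177 RPKM in Ikaros-Zn4-/- and 132 RPKM in WT cells. The 3 times did not overlap, with 30 min highest and 0 min lowest. The change was 2.82 at 30 min (SE 0.10, adjusted p = 0.000142) and 2.11 at 120 min (SE 0.13, adjusted p = 4.12e-05), or 2.96 and 2.43 relative to the median gene. Between 30 and 120 min its change was -0.71 (SE 0.13, adjusted p = 0.00375). Against Cdk4, the kinase its protein binds, Sertad1 stood at 0.721 to 1.43 RPKM per RPKM at 0 min, 8.31 to 10.9 at 30 min and 13.3 to 13.6 at 120 min.

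Between 30 and 120 min 6 of the 8 genes were called, where 48.2% of all genes were called, 16.9% higher and 31.3% lower (3152 genes higher and 3048 lower with median-ratio scaling). Cdkn1a was higher at 120 than at 30 min by 1.78 (SE 0.22, adjusted p = 0.000808). Lower at 120 min were Sertad1, Cdk4 by -1.17 (SE 0.12, adjusted p = 0.00038), Ccnd3 by -1.06 (SE 0.19, adjusted p = 0.00383), Cdk6 by -0.59 (SE 0.16, adjusted p = 0.0189) and Cdkn2d by -0.42 (SE 0.14, adjusted p = 0.0478). Cdkn1b did not pass (0.26, SE 0.15, adjusted p = 0.19), but did with median-ratio scaling (adjusted p = 0.0304). The calls of Cdk6 and Cdkn2d ended with that scaling (adjusted p = 0.0929 and 0.26), that of Cdk6 also without WT replicate 1 at 30 min (adjusted p = 0.0536). That of Cdkn2d also ended without either WT library at 30 min, either Ikaros-Zn4-/- library at 0 min or Ikaros-Zn4-/- replicate 2 at 30 min (adjusted p of 0.0508 to 0.11).

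**Figure D2:**
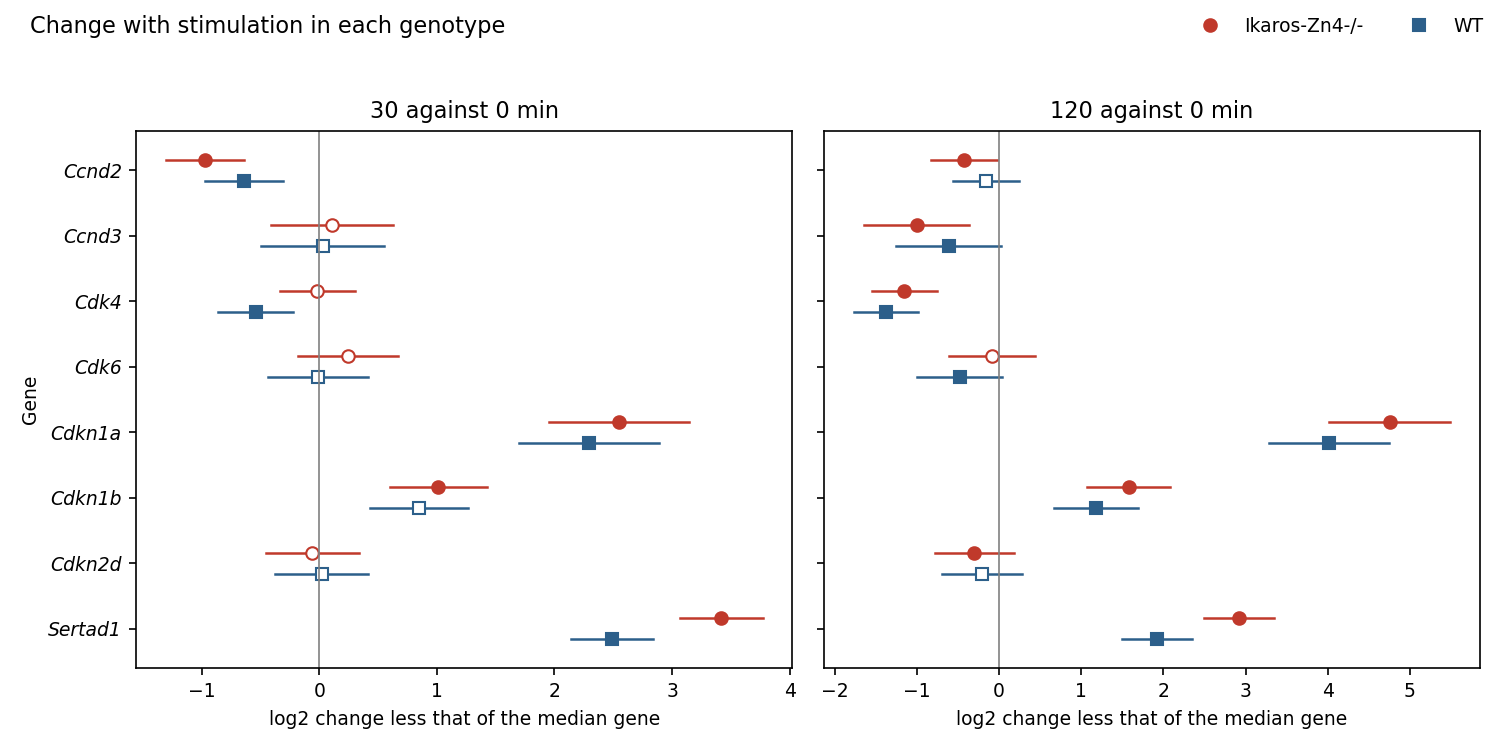
Log2 change of each gene against 0 min, less that of the median gene (horizontal axis), at 30 min (left) and 120 min (right), with Ikaros-Zn4-/- cells as circles above WT cells as squares. Bars are 95% intervals from limma and filled marks are called on the deposited scale; Sertad1 at 30 min stood at 3.42 in Ikaros-Zn4-/- and 2.49 in WT cells.

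Within each genotype, 4 of the 8 genes were called at 30 min. In Ikaros-Zn4-/- cells these were Ccnd2, lower, and Cdkn1a, Cdkn1b and Sertad1, higher, where 2.74% of all genes were called, 1.68% higher and 1.06% lower. In WT cells they were Ccnd2 and Cdk4, lower, and Cdkn1a and Sertad1, higher, where 6.03% were called, 3.21% higher and 2.82% lower. Ccnd2 changed by -1.09 in Ikaros-Zn4-/- (adjusted p = 0.0165) and -0.79 in WT cells (adjusted p = 0.0264), Cdkn1a by 2.43 in Ikaros-Zn4-/- (adjusted p = 0.0109) and 2.14 in WT cells (adjusted p = 0.0104), and Sertad1 by 3.30 in Ikaros-Zn4-/- (adjusted p = 0.00053) and 2.34 in WT cells (adjusted p = 0.00214). Cdkn1b changed by 0.90 in Ikaros-Zn4-/- (adjusted p = 0.0498) and 0.70 in WT cells (adjusted p = 0.0614), and Cdk4 by -0.13 in Ikaros-Zn4-/- (adjusted p = 0.608) and -0.69 in WT cells (adjusted p = 0.0345). The Cdkn1b call in Ikaros-Zn4-/- cells held only in the fits without a 120 min library, against adjusted p of 0.0544 to 0.167 in the other 8. Without any 1 of the 4 WT libraries at 0 or 30 min, 1 or 2 genes were called in WT cells, Sertad1 always among them. Without any 1 of the 4 Ikaros-Zn4-/- libraries at those times, or without WT replicate 1 at 30 min, 1 or 2 were called in Ikaros-Zn4-/- cells, again with Sertad1. Fitted on its own 4 libraries alone, each genotype gave fewer calls, 0 in Ikaros-Zn4-/- and 1 (Sertad1) in WT cells. At 120 min 7 genes were called in Ikaros-Zn4-/- cells, all but Cdk6, and 6 in WT cells, all but Ccnd2 and Cdkn2d. With median-ratio scaling the calls of Ccnd2 and Cdkn2d in Ikaros-Zn4-/- cells ended (adjusted p = 0.082 and 0.29), as did those of Ccnd3 and Cdk6 in WT cells (adjusted p = 0.087 and 0.142). Quantile normalization also ended those of Ccnd3 and Cdk6 in WT cells (adjusted p = 0.0796 and 0.371), and it made those of Ccnd2 and Cdkn2d there (adjusted p = 0.0362 and 0.0419). Of all genes, 47.3% were called in Ikaros-Zn4-/- cells, 14.7% higher and 32.6% lower, and 43.6% in WT cells, 14.2% higher and 29.5% lower. Median-ratio scaling gave 253 genes higher and 79 lower in Ikaros-Zn4-/- cells and 630 higher and 256 lower in WT cells at 30 min, and 2942 higher and 2790 lower in Ikaros-Zn4-/- cells and 2821 higher and 2655 lower in WT cells at 120 min. Leaving out WT replicate 1 at 0 min ended the WT calls of Ccnd3, Cdk6 and Cdkn1b and made that of Ccnd2. Leaving out WT replicate 2 at 0 min or WT replicate 1 at 30 min also ended that of Ccnd3. In Ikaros-Zn4-/- cells, the call of Cdkn2d ended without either WT library at 30 min or without Ikaros-Zn4-/- replicate 2 at 0 min. With only the Ikaros-Zn4-/- libraries at 0 and 120 min in the fit, 4 were called, Cdk4, Cdkn1a, Cdkn1b and Sertad1.

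The difference between the genotypes' responses was tested directly as an interaction, and none of the 8 genes was called at 30 or at 120 min. Nor was any of the 12203 genes called, a background of 0%, with 656 genes at 30 min and 661 at 120 min below an unadjusted p of 0.05. With limma-voom on recovered reads the number called was also 0 at both times. Sertad1 had the largest interaction of the 8 at 30 min, 0.96 (SE 0.21, adjusted p = 0.876). In linear terms its 30 min mean was 10.2 times the 0 min mean in Ikaros-Zn4-/- and 5.15 times in WT cells. At 120 min the Sertad1 interaction was 0.94 (SE 0.26, adjusted p = 0.876). For Cdk4 the interaction at 30 min was 0.56 (SE 0.19, adjusted p = 0.876).

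**Figure D3:**
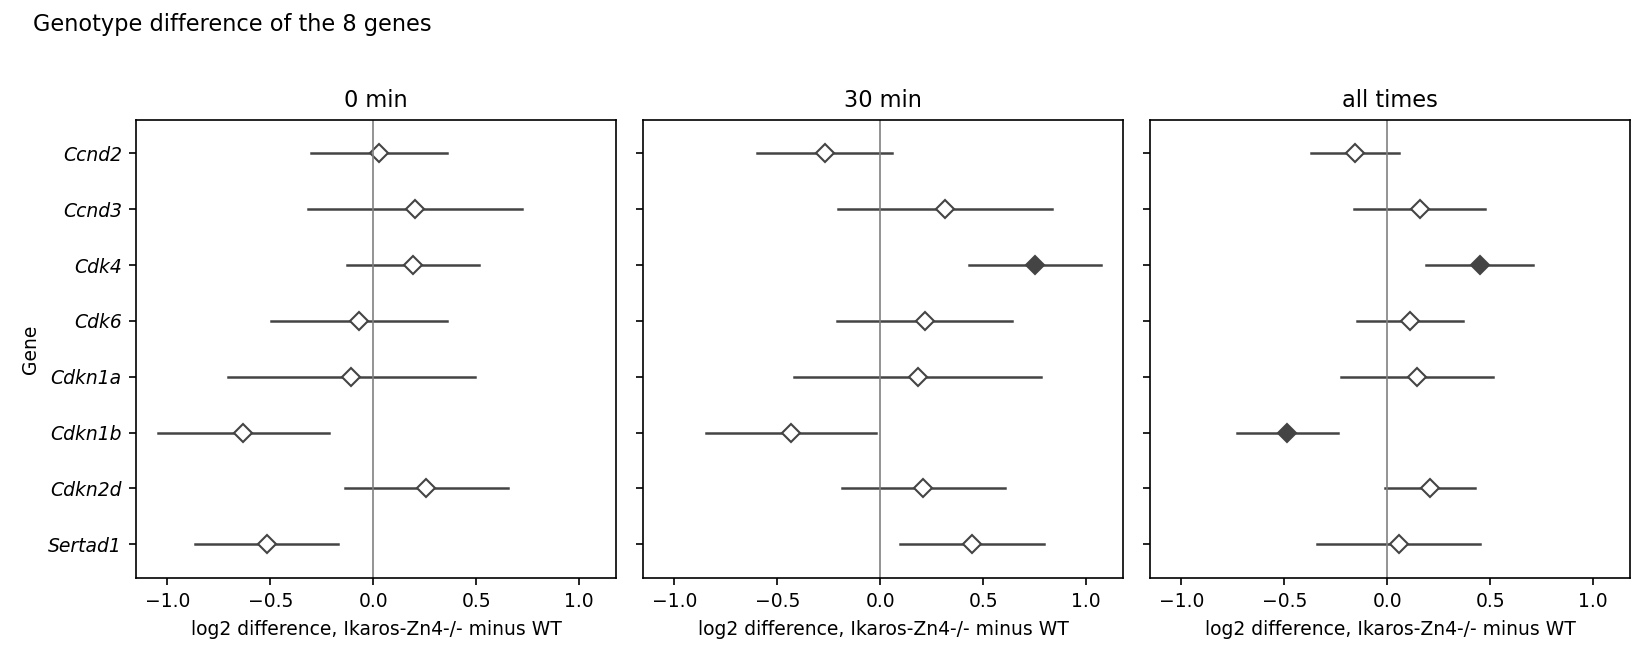
Log2 difference of each gene, Ikaros-Zn4-/- minus WT (horizontal axis), at 0 min, at 30 min and over all times, with 95% intervals from limma. Filled marks are called: Cdk4 at 30 min (0.75), and Cdk4 (0.45) and Cdkn1b (-0.48) over all times.

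Between genotypes 2 of the 8 genes were called in some comparison, Cdk4 at 30 min and over all times and Cdkn1b over all times. At 0 min none of the 8 genes was called by limma, where 2.47% of all genes were called, 1.92% higher and 0.557% lower. Of the 8, 2 had an unadjusted p below 0.05, Cdkn1b and Sertad1. Cdkn1b stood lowest, at -0.63 (SE 0.18, adjusted p = 0.151), and it was the 1 gene of the 8 called with limma-voom on recovered reads (-0.67, adjusted p = 0.0382). Sertad1 stood at -0.52 (SE 0.15, adjusted p = 0.16), with both Ikaros-Zn4-/- libraries below both WT ones. At 30 min Cdk4 alone was called, higher in Ikaros-Zn4-/- cells by 0.75 (SE 0.14, adjusted p = 0.0403), where 2.61% of all genes were called, 2.01% higher and 0.606% lower. Its mean was 1.72 times the WT mean there. That call ended in 8 of 10 fits without 1 library (adjusted p of 0.055 to 0.204), those that left out any 0 or 30 min library. It also ended when only the 30 min libraries were fitted (adjusted p = 0.174) and with moderation without a trend (adjusted p = 0.061).

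Over all times, in a model of genotype and time with 5 libraries against 5, 2 of the 8 genes were called, where 9.42% of all genes were called, 6.19% higher and 3.24% lower. Cdk4 was higher in Ikaros-Zn4-/- cells by 0.45 (SE 0.12, adjusted p = 0.0407), and above WT at each of the 3 times. That call held in 1 of the 10 fits that each left out 1 library, the one without WT replicate 2 at 0 min (adjusted p = 0.0397), against 0.0547 to 0.102 in the other 9. Cdkn1b was lower in Ikaros-Zn4-/- cells by -0.48 (SE 0.11, adjusted p = 0.024), and below WT at each of the 3 times. It was no longer called without WT replicate 1 or 2 at 0 min, WT replicate 1 at 30 min or Ikaros-Zn4-/- replicate 2 at 30 min (adjusted p of 0.0554 to 0.067). At 120 min, with 1 library per genotype and no test, the log2 difference was 0.36 for Cdk4, -0.29 for Cdkn1b, 0.57 for Cdkn1a, 0.42 for Sertad1, 0.27 for Cdk6, 0.10 for Cdkn2d, -0.25 for Ccnd3 and -0.30 for Ccnd2.

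Exons of Cdk4 overlap those of Tspan31, a tetraspanin gene on the opposite strand, over 641 bases, 19.7% of the exon length of Cdk4. The library kit does not mark strand, so reads from both genes cannot be told apart there, and how such reads were counted is not given in the sources used here. Tspan31 had 24.9 and 27.4 RPKM in Ikaros-Zn4-/- and 5.41 and 5.79 RPKM in WT cells at 0 min. At 30 min Tspan31 had 14.1 and 19.8 RPKM in Ikaros-Zn4-/- and 4.89 and 3.74 RPKM in WT cells, and at 120 min 11.6 RPKM in Ikaros-Zn4-/- and 4.71 RPKM in WT cells. It was higher in Ikaros-Zn4-/- cells by 1.74 over all times (SE 0.15, adjusted p = 0.000108), in the same direction as Cdk4. Had every Tspan31 read in the overlap been counted for Cdk4, with even coverage, Cdk4 without them would stand at 33.8 and 32.9 RPKM in Ikaros-Zn4-/- and 30.6 and 34.4 RPKM in WT cells at 0 min. At 30 min it would stand at 29.4 and 34.4 RPKM in Ikaros-Zn4-/- and 18.3 and 20.9 RPKM in WT cells, still apart, and at 120 min at 10.7 RPKM in Ikaros-Zn4-/- and 8.98 RPKM in WT cells. The part of Tspan31 reads in the genotype difference of Cdk4 was not tested. Ccnd3 overlaps Bysl on the opposite strand over 361 bases, 4.11% of its exon length.

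**Figure D4:**
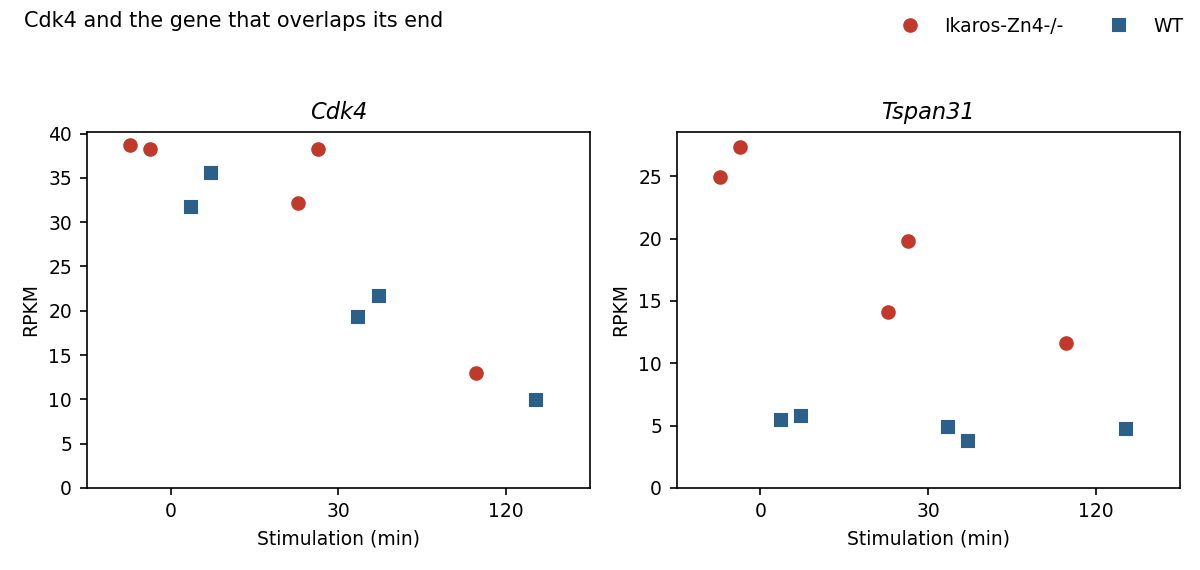
RPKM (vertical axes, from 0) of Cdk4 (left) and of Tspan31 (right), which overlap on opposite strands, by minutes of stimulation, with Ikaros-Zn4-/- libraries as circles and WT libraries as squares. Each point is 1 library; Tspan31 was higher in Ikaros-Zn4-/- cells at each time, by 1.74 on the log2 scale over all times.

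Markers of other cell states moved with genotype beside Cdk4 and Cdkn1b. The 7 markers of memory or activated CD8 T cells summed to 332 to 380 RPKM in Ikaros-Zn4-/- and 110 to 111 RPKM in WT cells at 0 min. They summed to 286 to 319 RPKM in Ikaros-Zn4-/- and 125 to 140 RPKM in WT cells at 30 min, and to 290 RPKM in Ikaros-Zn4-/- and 192 RPKM in WT cells at 120 min. Over all times 5 of these 7 were called higher in Ikaros-Zn4-/- cells, namely Il2rb, Gzmm, Cxcr3, Ly6c2 and Eomes, where 6.19% of all genes were. Ccl5 (0.18) and Cd44, which went the other way (-0.31), were not called. Of 7 B cell markers 3 had values, with sums of 276 to 314 RPKM in Ikaros-Zn4-/- and 386 to 411 RPKM in WT cells at 0 min, of which Ighm held 269.7 to 304.0 RPKM in Ikaros-Zn4-/- and 371.9 to 396.4 RPKM in WT cells. At 30 min these 3 summed to 180 to 243 RPKM in Ikaros-Zn4-/- and 285 to 339 RPKM in WT cells, and at 120 min to 46.7 RPKM in Ikaros-Zn4-/- and 76.7 RPKM in WT cells. Over all times Ighm (-0.56) and Cd79b (-0.83) were called lower in Ikaros-Zn4-/- cells, where 3.24% of all genes were. Cd79a (0.19) went the other way and was not called. At 120 against 0 min over both genotypes, Ighm (-2.67) and Cd79b (-1.54) were called lower, whereas Cd79a (2.27) was called higher. Of 7 natural killer cell markers only Gzma had values, at 2.10 to 9.28 RPKM in Ikaros-Zn4-/- and 0 to 0.212 RPKM in WT cells. Only Ikaros-Zn4-/- libraries took Gzma past the 1.00 RPKM that the deposited table required of some library. Its place there thus already required a genotype difference, which adds nothing here. The 7 naive T cell markers summed to 1373 to 2255 RPKM in Ikaros-Zn4-/- and 1651 to 2392 RPKM in WT libraries, lower in Ikaros-Zn4-/- cells at each time, with none of the 7 called between genotypes. Of 8 myeloid markers 4 had values, summing to 31.6 to 33.4 RPKM in Ikaros-Zn4-/- and 30.7 to 31.1 RPKM in WT cells at 0 min, to 59.4 to 94.5 RPKM in Ikaros-Zn4-/- and 49.98 to 52.65 RPKM in WT cells at 30 min, and to 54.7 RPKM in Ikaros-Zn4-/- and 28.8 RPKM in WT cells at 120 min. Of these 4, Itgam was higher in Ikaros-Zn4-/- cells over all times. Cd68 was called higher at 30 min (2.26, adjusted p = 0.0072) and at 120 min (1.88, adjusted p = 0.00596) against 0 min, while Cst3 was called lower at 120 min. The part of such cells in the changes of the 8 genes with stimulation was not tested. Of 6 CD4 and regulatory T cell markers 3 had values, summing to 10.8 to 22.2 RPKM in Ikaros-Zn4-/- and 5.06 to 15.5 RPKM in WT cells at 0 min, to 34.5 to 40.4 RPKM in Ikaros-Zn4-/- and 35.4 to 36.1 RPKM in WT cells at 30 min, and to 31.2 RPKM in Ikaros-Zn4-/- and 13.4 RPKM in WT cells at 120 min. Of these 3, Ikzf2 was higher in Ikaros-Zn4-/- cells over all times; Ctla4, which activated T cells also express, was called higher at 30 min and Ikzf2 at 120 min against 0 min. Of 8 erythroid and platelet markers 0 had values, and Lck, a CD8 T cell marker, was higher in Ikaros-Zn4-/- cells over all times. The part of such cells in the genotype differences of Cdk4 and Cdkn1b was not tested. The 15 measured genes of S phase and of G2 and mitosis summed to 128 to 172 RPKM in Ikaros-Zn4-/- and 157 RPKM in both WT libraries at 0 min, and to 259 RPKM in Ikaros-Zn4-/- and 244 RPKM in WT cells at 120 min.

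Other genes of the G1 machinery were taken as 11 lists, also chosen with earlier results of these data known, so their shares are descriptive only. Each list's calls stand against the shares of all genes called, 6.51% higher and 12.5% lower at 30 min and 19.3% higher and 40.4% lower at 120 min, or 19% and 59.7% in either direction. Between genotypes, 9.42% of all genes were called over all times, 6.19% higher and 3.24% lower, 2.47% at 0 min and 2.61% at 30 min. List genes called between genotypes are named one by one against those shares, and no result about a list is drawn from them. Changes of list genes with stimulation are relative to the median gene, and each adjusted p tests the deposited change. In the lists, Ccne2, Cdkn1a, Cdkn1c, Usp2, Skp2 and Cdc6 stayed below the 1.00 RPKM that the table required of some library in all 0 min libraries, so that their place in it rests on stimulated libraries and their rises add nothing to a list's count. None of their called genes turned its sign under the other scalings at 30 or 120 min. Of 6 listed cyclins (D-type, E-type and Ccna2) 5 were measured. Ccnd2 and Ccnd3 fell at 120 min, the call of Ccnd2 not under median-ratio scaling, whereas the E-type cyclins Ccne1 and Ccne2, which activate CDK2 at the end of G1, rose. Ccne2 reached 3.20 RPKM in Ikaros-Zn4-/- and 2.15 RPKM in WT cells at 120 min, against means of 0.415 RPKM in Ikaros-Zn4-/- and 0.356 RPKM in WT cells at 0 min, a change of 1.72 relative to the median gene (adjusted p = 0.00102). Among the 8 kinase genes and their partners, Cdk2, the kinase of the E-type cyclins, rose by 1.29 relative to the median gene (adjusted p = 0.000223). Besides Cdk4 and Cdk6, Cdc37, Ccnh and Mnat1 fell, so that 1 rose and 5 fell, or 2 and 4 with median-ratio scaling. The list medians relative to the median gene were 0.11 for the cyclins and -0.44 for the kinases and partners. The cyclin median includes Ccne2, whose place in the table rests on stimulated libraries. Of 5 measured INK4 and CIP/KIP inhibitors, Cdkn1c (p57) rose together with Cdkn1a and Cdkn1b at both times, and Cdkn2d fell at 120 min, though not with median-ratio scaling. The list median relative to the median gene was 0.93 at 30 min and 1.38 at 120 min. It includes Cdkn1a and Cdkn1c, whose place in the table rests on stimulated libraries. On the same relative scale Cdkn2c stood at 0.47 at 30 min and 0.28 at 120 min, called at neither. Cdkn2d stood at -0.02 at 30 min and -0.25 at 120 min.

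Of 4 measured SERTA domain genes 3 rose at both times, Sertad1, Sertad2 and Sertad3. Sertad2 was lower in Ikaros-Zn4-/- cells over all times by -0.67 (SE 0.15, adjusted p = 0.0228). That call ended without WT replicate 1 at 0 min, either WT library at 30 min, or Ikaros-Zn4-/- replicate 2 at 0 or 30 min (adjusted p of 0.0513 to 0.0688). Of 11 measured retinoblastoma and E2F genes, 0 rose and 2 fell at 30 min, and 2 rose and 5 fell at 120 min, or 3 and 3 with median-ratio scaling. At 120 min that is 18.2% higher and 45.5% lower, near the shares of all genes. The activator E2f1 rose by 1.32 relative to the median gene (adjusted p = 0.00373), and E2f4, which acts with retinoblastoma relatives in resting cells, fell by 0.86 relative to it (adjusted p = 0.000347); at 30 min E2f6 fell by 0.59, again relative to it (adjusted p = 0.0477), a call that ended with median-ratio scaling, with quantile normalization and without any 0 or 30 min library other than WT replicate 1 at 0 min (adjusted p of 0.0659 to 0.143 without these). Of the 5 MuvB core genes, Lin54, Lin9 and Lin52 rose at 120 min, Lin54 by 1.75 relative to the median gene (adjusted p = 0.000376).

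Among 14 genes for turnover of G1 cyclins and p27, 4 rose and 4 fell at 120 min, or 9 and 3 with median-ratio scaling. In all 57.1% were called, near the 59.7% of all genes. Cks1b, a cofactor in the ubiquitination of p27 by SKP2, rose by 2.77 relative to the median gene (adjusted p = 0.000357), to 15.9 RPKM in Ikaros-Zn4-/- and 11.8 RPKM in WT cells. Rnf123, a subunit of the KPC ligase for p27, fell by 1.52 relative to it (adjusted p = 7.51e-05). Usp2, a deubiquitinase of cyclin D1, rose at 30 min by 1.35 relative to the median gene (adjusted p = 0.00696) and was then lower in Ikaros-Zn4-/- cells by -1.32 (SE 0.25, adjusted p = 0.0449), a call that ended without any 0 or 30 min library (adjusted p of 0.0641 to 0.23).

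Of 18 measured p53 pathway genes, 8 rose and 2 fell at 30 min, and 10 rose and 4 fell at 120 min. In all 55.6% were called at 30 min and 77.8% at 120 min, against 19% and 59.7% of all genes. Plk2 rose most at 30 min, by 2.85 relative to the median gene (adjusted p = 0.00466), and Aen fell by 0.51 relative to it (adjusted p = 0.00696). At 120 min Sesn2 rose by 3.23 (adjusted p = 8.24e-05) and Mdm4, an inhibitor of p53, fell by 1.19 (adjusted p = 0.000143), both relative to the median gene. Pmaip1 (NOXA), a death-promoting target of p53, was higher in Ikaros-Zn4-/- cells over all times by 2.26 (SE 0.28, adjusted p = 0.00101), Ei24, another p53 target, by 0.66 (SE 0.15, adjusted p = 0.0275), and Sesn1, a stress-induced target, was lower by -1.14 (SE 0.11, adjusted p = 0.000271). The Ei24 call held only without WT replicate 2 at 30 min or Ikaros-Zn4-/- replicate 1 at 0 or 30 min, against adjusted p of 0.0646 to 0.085 in the other 7. Pmaip1 and Sesn1 were also called at 0 and at 30 min. Those calls of Pmaip1 ended without any 30 min library or either Ikaros-Zn4-/- library at 0 min, and those of Sesn1 without either WT library or Ikaros-Zn4-/- replicate 2 of the time compared. Cdkn1a was called in no genotype comparison.

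Of 11 measured quiescence factors, 6 rose at 30 min and none fell, and at 120 min 7 rose and 2 fell, or 9 and 1 with median-ratio scaling. In all 54.5% were called at 30 min and 81.8% at 120 min. Klf4, which can restrain T cell division, rose by 2.97 relative to the median gene at 30 min (adjusted p = 0.00361). The antiproliferative gene Tob2 rose by 2.88 at 120 min (adjusted p = 0.000118), and Klf2, which maintains the naive state, fell by 1.24 (adjusted p = 0.00813), both relative to the median gene. Tob1 was lower in Ikaros-Zn4-/- cells at 0 min by -1.34 (SE 0.26, adjusted p = 0.0499), a call that ended with either other scaling and held only without WT replicate 2 at 0 min or without the Ikaros-Zn4-/- library at 120 min (adjusted p of 0.051 to 0.223 in the other 8). Foxp1 was lower in Ikaros-Zn4-/- cells over all times by -0.38 (SE 0.08, adjusted p = 0.0239), except without any WT library at 0 or 30 min or Ikaros-Zn4-/- replicate 1 at 0 min (adjusted p of 0.0505 to 0.0737).

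In the MYC and MAX network 4 of 8 measured genes rose at 120 min and 1 fell. The MAX partner Mxi1 rose by 2.19 relative to the median gene (adjusted p = 9.63e-05), and Mlx fell by 1.33 relative to it (adjusted p = 0.000227). At 30 min Mxd1, another MAX partner that opposes MYC, rose by 1.53 (adjusted p = 0.0042), and Mlx fell by 0.51 (adjusted p = 0.0239), again relative to it. That call of Mlx ended without any WT library at 0 or 30 min or Ikaros-Zn4-/- replicate 1 at 0 min (adjusted p of 0.0592 to 0.0865). Mxi1 was lower in Ikaros-Zn4-/- cells over all times by -0.47 (SE 0.10, adjusted p = 0.0209), but not without either 120 min library, WT replicate 2 at 0 or 30 min, or Ikaros-Zn4-/- replicate 1 at 0 min (adjusted p of 0.0525 to 0.0585). Of 15 measured genes of S phase and of G2 and mitosis, 7 rose and 2 fell at 120 min, or 9 and 1 with median-ratio scaling. That is 60% called, near the 59.7% of all genes, with 46.7% higher and 13.3% lower. Pcna rose at 30 min by 1.18 relative to the median gene (adjusted p = 0.00294) and Cdt1, a replication licensing factor, at 120 min by 1.89 (adjusted p = 0.000406). Tyms, which makes thymidylate for DNA, fell by 0.49 at 120 min relative to the median gene (adjusted p = 0.012), a call that ended with quantile normalization (adjusted p = 0.09). It was higher in Ikaros-Zn4-/- cells over all times by 0.57 (SE 0.14, adjusted p = 0.0376), a call that held in 1 of the 10 fits without 1 library, that without Ikaros-Zn4-/- replicate 1 at 30 min.

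**Figure D5:**
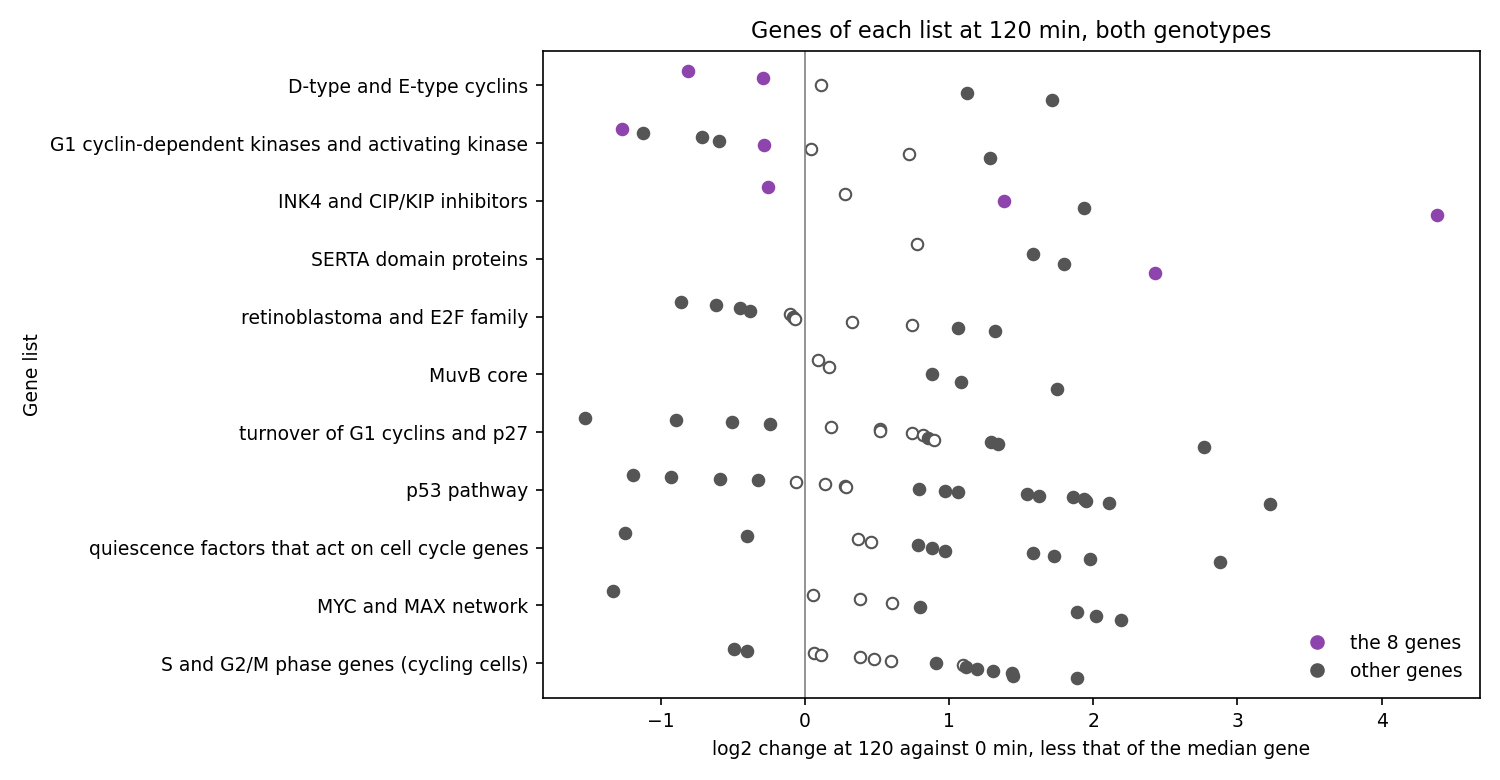
Log2 change at 120 against 0 min over both genotypes, less that of the median gene (horizontal axis), for each measured gene of the 11 lists (vertical axis). Each point is 1 gene, filled where called on the deposited scale and purple for the 8 genes; the calls of Ccnd2, Cdk6 and Cdkn2d ended with median-ratio scaling, and Cdkn1a stood at 4.39.

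Across the 10 libraries and the 6982 genes that averaged 5 RPKM or more, Pearson r of log2(RPKM + 1) was used to name the 2 genes most like each of the 8. For Cdkn1a these were Pim1 (0.99) and Brd2 (0.98), and for Sertad1 Arl4d (0.98) and Rrad (0.98). For Cdkn1b they were Flcn (0.97) and Srgn (0.97), and for Cdkn2d Cox7a2 (0.98) and Gm15429 (0.98). Cdk4 was closest to Naa10 (0.99) and Psmb9 (0.99), and Cdk6 to Fam98c (0.96) and Snord49b (0.96). Ccnd2 was closest to Pygb (0.97) and Nelfb (0.95), and Ccnd3 to Nelfe (0.99) and Mrpl21 (0.98). All 10 points share the same 3 times and scaling, so these values describe shared courses only.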

How the data were processed

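For 10 libraries, the authors deposited RPKM values, 1 per gene and library. Per the submitters' processing notes, TopHat2 2.0.12, TopHat and HTSeq 0.6.1 were used with mm10 (GRCm38); the annotation behind the gene lengths is not given in the sources used here. Per the labels' protocols, libraries were single-end and made with the TruSeq RNA kit v2, which does not mark strand. Gene positions and exon lengths were read from GENCODE M21, which held 12567 of 12637 genes.

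Since the deposited RPKM values are not counts, limma 3.58.1 (R 4.3.3) with an intensity trend was fitted to log2(RPKM + 1) over all genes tested and adjusted over all of them; the lone 120 min libraries take their spread from the others. Two-sided p-values are given throughout. From low values and exon lengths, 65.7 to 71.2% of values below 200 reads came out within 0.01 of a whole read (2% by chance), which gave each library's depth, and limma-voom on the recovered reads was an alternative. Other alternatives were pseudocounts of 0.1 and 0.5 RPKM, no filter or a mean of 2 RPKM, median-ratio scaling, quantile normalization, fits on the compared groups only, moderation without a trend, a replicate block and leaving out each library. The fit was tested on simulated data.

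Named are the 8 genes; in each list the called genes with the largest rise and fall at 30 and at 120 min and every gene called between genotypes; and the 2 genes most correlated with each of the 8. Members and lists were chosen with earlier results of these data known.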

Additional observations from a re-analysis of the deposited data

Results flagged for a closer look

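Sertad1 rose from 0 to 30 min in both genotypes, and the sign of its genotype difference turned between these times: both Ikaros-Zn4-/- libraries lay below both WT libraries at 0 min, and both lay above them at 30 min. The log2 difference, Ikaros-Zn4-/- minus WT, was -0.52 at 0 min and 0.45 at 30 min. The test of the difference itself gave an interaction of 0.96 (limma, SE 0.21, adjusted p = 0.876), which did not pass, and leaving out each library in turn gave 0.83 to 1.10 (adjusted p of 0.393 to 0.999).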

How the results depend on the processing

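The counts of the 8 genes called differed as follows. With median-ratio scaling, 5 genes were called at 120 against 0 min over both genotypes in place of 8. Fits on the compared groups only, which have fewer samples, called 0 in Ikaros-Zn4-/- and 1 in WT cells at 30 min, 4 in Ikaros-Zn4-/- cells at 120 min, and 0 between genotypes at 30 min. Moderation without a trend called 0 between genotypes at 30 min and 1 (Cdkn1b) over all times, and limma-voom on recovered reads called 1 (Cdkn1b) at 0 min; the cause was not tested. Leaving out 1 library gave 1 to 4 calls at 30 min in Ikaros-Zn4-/- and 1 to 5 in WT cells, and 0 to 1 between genotypes both at 30 min and over all times. Comparisons of 120 min with another time averaged over genotypes have no value without either 120 min library.

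Of the values of single genes under these alternatives, 2313 kept their direction and their side of the threshold, 200 lost their call, 19 gained one and 41 turned their sign, the last none of them called before or after. With median-ratio scaling, the 30 min change of Ccnd3 was 0.074 over both genotypes, 0.12 in Ikaros-Zn4-/- and 0.025 in WT cells. That of Cdk6 was 0.10 over both genotypes, that of Cdk4 0.0037 in Ikaros-Zn4-/- cells, and that of Cdkn2d 0.025 in WT cells, while Ccnd2 differed between genotypes by -0.014 at 0 min. With quantile normalization, the 30 min change was 0.023 for Ccnd3 and 0.13 for Cdk6 over both genotypes and 0.058 for Ccnd3 in Ikaros-Zn4-/- cells, where limma-voom gave 0.016. It was 0.053 at 120 min for Cdk6 in Ikaros-Zn4-/- cells, and the genotype difference was -0.023 for Ccnd2 at 0 min and -0.036 for Sertad1 over all times.

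Leaving out 1 library, the 30 min change lay between -0.20 and 0.072 for Ccnd3 and -0.11 and 0.086 for Cdk6 over both genotypes, -0.28 and 0.26 for Ccnd3 in Ikaros-Zn4-/- cells, and -0.30 and 0.042 for Cdkn2d and -0.36 and 0.042 for Cdk6 in WT cells. The genotype difference at 0 min lay between -0.13 and 0.19 for Ccnd2, -0.30 and 0.089 for Cdkn1a, -0.070 and 0.48 for Ccnd3, and -0.27 and 0.13 for Cdk6. That of Cdkn1a at 30 min lay between -0.14 and 0.51, and that of Sertad1 over all times between -0.046 and 0.18. The 30 min interaction lay between -0.0093 and 0.40 for Cdkn1b, -0.22 and 0.12 for Cdkn2d, -0.037 and 0.61 for Cdkn1a, and -0.16 and 0.38 for Ccnd3, and the 120 min one between -0.32 and 0.014 for Cdkn2d.

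Deviations of same-numbered replicates correlated by 0.04 to 0.23 between groups, all positive, with 1 of 6 pairs of groups under 0.1. The main fits did not pair samples by number, and whether the numbers pair samples was not tested. For the Ikaros-Zn4-/- library at 120 min the title gives number 1 and the description 2, and the WT title gives none. The replicate block used the description. With the replicate block, 5 genes were called at 30 and 8 at 120 against 0 min over both genotypes, 6 at 120 against 30 min, 4 at 30 min in Ikaros-Zn4-/- and 5 in WT cells, 7 at 120 min in Ikaros-Zn4-/- and 8 in WT cells, and 0, 1 and 2 between genotypes at 0 min, at 30 min and over all times. Depth limits Cdkn1a at 0 min, with 1 to 9 reads per library, and 1 library per genotype limits every value at 120 min.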
